A study of Homo sapiens with 3 samples.

Results

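The comparison described here is that of A549 cells transfected with the *miR-139-5p* precursor against mock cells, which used 2 of the 3 arrays of the series. A549 is an established human cell line of lung adenocarcinoma with an alveolar epithelial origin. The treated cells received the *miR-139-5p* precursor with Lipofectamine RNAiMAX, at the 10 nM that the study's methods give for every precursor, and the mock cells received the reagent with no precursor (0 nM). The third array holds cells given the *miR-139-3p* precursor at the same dose and is used only for values set side by side. All 3 cultures were grown in the same medium, each group was 1 culture of 1 cell line on 1 array, and the transfection was transient. The time from transfection to RNA extraction for the arrays is not given in the sources used here. The mock cells carried no other small RNA, so a response to *miR-139-5p* and a response to any transfected precursor cannot be told apart. Of 22439 genes with a RefSeq symbol on the array, 15018 had a value in this comparison. As each group had 1 array, no difference below has a replicate check, and p-values could not be computed.

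A microRNA acts in complex with an Argonaute protein and recognises messenger RNAs mainly through its seed, the short stretch near its 5′ end. Pairing of the seed with the 3′ untranslated region of a messenger RNA lowers translation and usually the level of that messenger RNA. *miR-139* is processed from an intron of *PDE2A*, which encodes a cyclic nucleotide phosphodiesterase, and its 5p strand is known as a microRNA with reduced levels in lung adenocarcinoma and many other cancers.

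The mature strands are shown because the seed, written in capitals at bases 2 to 8, is what sets the transfected strand apart from its partner. Both are RefSeq sequences on the minus strand of GRCh38.p14, miR-139-5p at chr11:72615102-72615124 and miR-139-3p at chr11:72615066-72615088, written 5′ to 3′.
miR-139-5p: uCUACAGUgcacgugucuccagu
miR-139-3p: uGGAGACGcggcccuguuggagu
In the hairpin of 68 bases, at chr11:72615063-72615130, the capitals mark the 5p strand.
MIR139 hairpin: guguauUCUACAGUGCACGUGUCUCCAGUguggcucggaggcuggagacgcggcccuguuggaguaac
Of 2545 mature microRNAs in the RefSeq table, 1 carried the seed CUACAGU, which was *miR-139-5p* itself, and 1 carried the seed GGAGACG of the 3p strand. The bases that pair with the seed of *miR-139-5p* in a transcript read ACTGTAG. Which transcripts carry such a site was not analysed here.

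The signal of each spot was put on the log2 scale relative to the 75th percentile of its array, so that a value of 0 is the level of that percentile and a difference of 1 is a 2-fold change. The share of spots well above background was 49.9% in mock and 48.1% with *miR-139-5p*, and both arrays lay on the same slide. The *miR-139-3p* array lay on another slide. Spots of one probe differed on a single array by a median log2 SD of 0.05 in mock and 0.06 with *miR-139-5p*. In the 3743 genes with more than 1 measured probe, the log2 fold changes of the probes of one gene had a median SD of 0.15. These are the only errors that the data give, and they hold no spread between cultures. The E1A spike-in RNAs, added in equal amounts and read by 8 probes, differed between the arrays by -0.06 ± 0.17 on the log2 scale (mean ± SD over probes) after scaling.

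In the labelled cell line, 11 of the 12 epithelial and A549 marker genes had a value, among them *KRT7*, *KRT8*, *KRT18*, *KRT19*, *EPCAM*, *CDH1*, *AKR1B10* and *ALDH1A1*. The normalised log2 signals of the 11 ran from -1.94 to 9.10 in mock cells and from -2.72 to 9.41 with *miR-139-5p*. Of the 11, 5 were below -0.5 and none above 0.5 in log2 fold change, or 3 and none with normexp correction, and their median was -0.31. Of 9 leukocyte markers on the array 5 had a value, and *CD3E*, *MS4A1* and *CSF1R* were among those not well above background. The signals of the 5 ran from -3.55 to 1.64 in mock cells and from -4.94 to 1.77 with *miR-139-5p*. Of 12 endothelial and fibroblast markers 4 had a value, with *PECAM1*, *KDR*, *COL1A2*, *COL3A1*, *DCN* and *LUM* not well above background. The highest of the 4 was *COL1A1*, at -1.22 in mock cells and 0.19 with *miR-139-5p*. Of 24 alveolar and lung identity genes on the array 18 had a value, with mock signals from -4.10 to 4.38. The highest was *FOXA2*, at 4.38 on the mock array and 4.42 with *miR-139-5p*. *SFTPB*, *SFTPD* and *NKX2-1* were among those not well above background. The RNA comes from whole cultures, so fewer cells that express a gene and less RNA per cell cannot be told apart.

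With *miR-139-5p*, 1847 of 15018 genes had a log2 fold change below -0.5, which is 12.3%, and 1609 had one above 0.5, which is 10.7%. These 2 shares are the background for every gene group below. Of the genes measured on both arrays 302 were below -1 and 247 above 1. The median log2 fold change was 0.00 and the SD over genes 0.45. Fold changes were wider among dim genes. When genes were put in 4 bins of equal size by signal, the SD was 0.53 in the dimmest bin and 0.36 in the brightest. The balance of the directions depended on the scaling. Of the genes past 0.5, 46.6% were higher in the main setting, 33.9% without scaling and 56.5% when the arrays were scaled to the E1A probes. The counts depended on the background too. With normexp correction, which shrinks the differences of dim genes, 630 of 14904 genes were below -0.5 and 517 above 0.5. These 2 counts are the background for the group counts given with normexp correction.

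**Figure D1:**
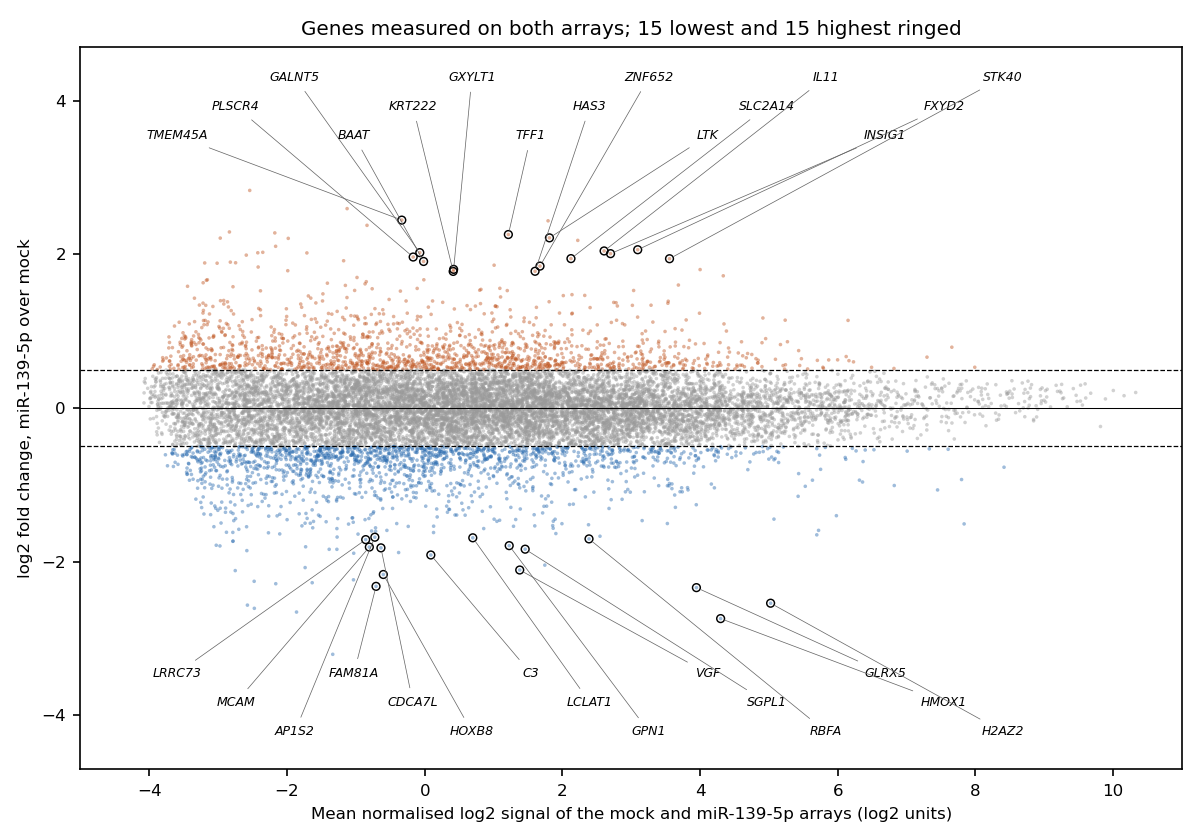
Each point is 1 gene measured on both arrays, with the mean normalised log2 signal of the mock and *miR-139-5p* arrays on the x axis and the log2 fold change on the y axis. Dashed lines mark -0.5 and 0.5, blue points lie below and orange points above them, and the rings mark the 15 lowest and 15 highest protein-coding genes with a mean signal of -1 or more, from *HMOX1* at -2.74 to *TMEM45A* at 2.45.

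Among 8852 protein-coding genes with a mean signal of -1 or more and probes in a single direction, the lowest was *HMOX1*, which encodes heme oxygenase 1. Its normalised log2 signal was 5.67 in mock cells and 2.93 with *miR-139-5p*, a 6.69-fold lower signal. *H2AZ2*, a variant of histone H2A, was at 6.29 in mock cells and 3.75 with *miR-139-5p*, and was 5.82-fold lower. A second, dim probe of *H2AZ2* was not well above background on the treated array. *GLRX5*, a mitochondrial glutaredoxin needed for iron-sulfur clusters, was at 5.12 and 2.78 in the same order. The mitochondrial ribosome factor *RBFA* was at 3.24 and 1.53, and the nuclear import GTPase *GPN1* was at 2.12 and 0.33 (log2 fold change -1.79, SD 0.30 over 3 probes). *SGPL1*, the lyase that degrades sphingosine 1-phosphate, was at 2.38 and 0.54. The secreted peptide precursor *VGF* was at 2.43 and 0.33. All of these were at most 0.31 of the mock signal on the linear scale. The other 8 of the 15 lowest were *FAM81A*, *HOXB8*, *C3*, *CDCA7L*, *MCAM*, *LRRC73*, *LCLAT1* and *AP1S2*, with log2 fold changes from -2.32 to -1.68. With normexp correction *FAM81A*, *HOXB8*, *C3*, *CDCA7L*, *MCAM*, *LRRC73* and *AP1S2* moved to values between -1.18 and -0.81.

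Of the 15 highest genes, *TMEM45A*, a transmembrane protein, was at -1.56 in mock cells and 0.89 with *miR-139-5p*, a 5.45-fold higher signal. *TFF1*, a secreted trefoil peptide, was at 0.09 and 2.34. The receptor tyrosine kinase *LTK* was at 0.70 and 2.92. *FXYD2*, the regulatory gamma subunit of the sodium pump, was at 2.06 and 4.12, with 2 probes that differed by an SD of 0.03. With normexp correction *TMEM45A* had a log2 fold change of 1.38. The cytokine *IL11* was at 1.58 and 3.63, and *INSIG1*, which retains the sterol sensor SCAP in the endoplasmic reticulum, was at 1.69 and 3.70. The pseudokinase *STK40* was at 2.58 and 4.53. *HAS3*, a hyaluronan synthase, had a log2 fold change of 1.78, which was 0.90 at its lowest among the settings. The glycosyltransferases *GALNT5* and *GXYLT1* had values of 2.02 and 1.81. The other 5 were *PLSCR4*, *SLC2A14*, *BAAT*, *ZNF652* and *KRT222*, between 1.78 and 1.97. With normexp correction *GALNT5*, *PLSCR4* and *BAAT* were at 1.26, 1.23 and 1.11. *SLC2A14* is a near copy of *SLC2A3*, and how far its probe reads both was not tested.

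**Figure D2:**
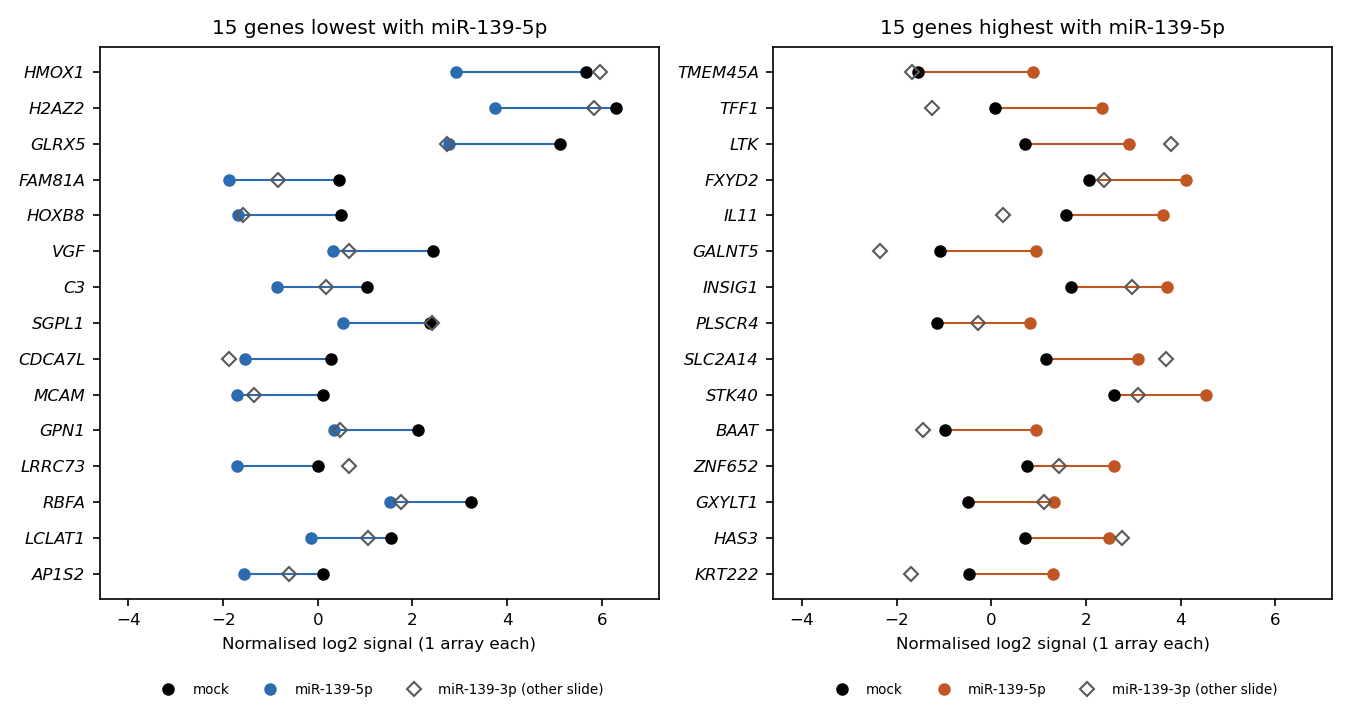
Normalised log2 signal on the x axis for the 15 lowest genes (left) and the 15 highest genes (right), with 1 array per point. Black points are mock, coloured points *miR-139-5p* and open diamonds *miR-139-3p*, which lay on another slide and shares the mock array. *HMOX1* was at 5.67 in mock and 2.93 with *miR-139-5p*, and *TFF1* at 0.09 and 2.34.

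The *miR-139-3p* culture had its own values for these genes, measured against the same mock array. *HMOX1* was at -2.74 with *miR-139-5p* and at 0.29 with *miR-139-3p* (log2 fold change). *SGPL1* was at -1.84 and 0.04 in that order, *TFF1* at 2.26 and -1.34, and *IL11* at 2.04 and -1.34. *GLRX5* was at -2.34 with the 5p strand and -2.40 with the 3p strand, and *HOXB8* at -2.17 and -2.07. *LTK* was at 2.22 and 3.10. As both comparisons share the mock array, an error of that array would appear in both.

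Genes well above background on only 1 of the 2 arrays have a bound in place of a fold change. It sets the signal on the bright array against the lowest signal well above background on the other, or against the probe's own signal there where that was higher. In total 521 genes had a bound in the lower direction and 186 in the higher. *ANKRD2*, an ankyrin repeat protein of muscle, was at 0.51 in mock cells and at -4.37, not well above background, with *miR-139-5p*, and was at least 24.8-fold lower. *ASCL2*, a transcription factor of the intestinal stem cell, was at least 5.88-fold lower, and the factor *NFE2*, the nicotinic receptor subunit *CHRNB2* and *ESPNL* at least 3.70-fold, 3.53-fold and 3.21-fold lower. In the other direction the anion transporter *SLC26A7* was at least 4.02-fold higher and the glucuronosyltransferase *UGT2B11* at least 3.66-fold higher. The angiotensin II receptor *AGTR1*, the kinase *TTBK1* and the retinoid receptor *RXRG* were at least 3.48-fold, 3.43-fold and 3.34-fold higher. These bounds rest on dim signals. With normexp correction the log2 difference was -1.44 for *ANKRD2*, -0.55 for *ASCL2*, 0.33 for *AGTR1* and 0.10 for *SLC26A7*, and the other 6 lay between -0.5 and 0.5.

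A list of 23 genes that have been described as targets of *miR-139-5p* was compiled from general knowledge, and it was not checked against a source. Of the 21 with a value, 5 were below -0.5 and 5 above 0.5, against 12.3% and 10.7% of all genes. The median of the list was -0.08, and it was 0.21 with the brightest probe of each gene and 0.05 over bright probes alone, so its direction was not settled. With normexp correction 3 members were below -0.5, *HNRNPF*, *EIF4G2* and *TPD52*, and none above 0.5. *HNRNPF*, a splicing regulator, was the lowest, at 3.30 in mock cells and 2.11 with *miR-139-5p*. *TPD52*, a vesicle trafficking protein, was at 0.34 and -0.67, and *EIF4G2*, a translation initiation factor, at 4.03 and 3.02. The anti-apoptotic gene *BCL2* was at -3.39 in mock cells and not well above background with *miR-139-5p*, and the transcription factor *TCF4* was at 1.52 and 0.95. Several members were closer to mock. *IGF1R*, the receptor of insulin-like growth factors, was at 3.18 and 3.10, *ROCK2*, a kinase of the cytoskeleton, at 0.64 and 0.84, and *NOTCH1* at -0.83 and -1.23. *HRAS* and *RAP1B*, small GTPases, had log2 fold changes of -0.23 and 0.33. The other end of the list held *MET*, the hepatocyte growth factor receptor, at 5.53 and 6.05. The AP-1 subunits *FOS* and *JUN* had log2 fold changes of 0.61 and 0.62, the chemokine receptor *CXCR4* 0.52 and the dim repressor *ZEB2* 1.32, which was 0.28 with normexp correction. *FOXO1* was at 0.40 and *ZEB1* at 0.21. *HOXA10*, *HOXA9* and *PDE4D* had no settled direction. Their means were -0.10, -0.08 and -0.16, and with the brightest probe they were at 0.18, 0.26 and 0.63.

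The array holds no probe for the mature strand, so the transfected microRNA itself was not measured. The host gene *PDE2A* was dim, at -1.93 in mock cells and -2.30 with *miR-139-5p*. *AGO2*, the Argonaute protein that cleaves targets, was at 2.31 and 2.78. *DICER1*, which cuts hairpin precursors to the mature length, was at 1.53 and 2.76, a 2.35-fold higher signal. Of 27 genes of the microRNA machinery, 2 were above 0.5, *DICER1* and *TNRC6A*, a partner of Argonaute with a log2 fold change of 0.72. The deadenylase subunit *PAN3* was the only one below -0.5, at -0.57, which was -0.24 with normexp correction.

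The genes induced by the MAPK pathway had a median above that of all genes. The list holds immediate early genes, which are switched on directly by growth factor signals, and feedback inhibitors, which damp the pathway. Of 28 with a value, 12 were above 0.5 and 1, the bound of *SPRED3*, was below -0.5, and the median was 0.43 against 0.00 over all genes. *EGR1*, an immediate early zinc finger factor, was at -2.43 in mock cells and 0.17 with *miR-139-5p*, a 6.05-fold higher signal. Its mock signal was dim, and with normexp background correction its log2 fold change was 1.15 in place of 2.60. With *miR-139-3p*, against the same mock array, it was 2.65. *DUSP6*, a phosphatase of ERK, was at 1.47 and 2.33, and *SPRY2*, an inhibitor of receptor tyrosine kinases, at 1.07 and 1.86. *IER2* was bright on both arrays, at 5.79 and 6.46. The ETS factor *ETV1* had a log2 fold change of 0.78 with a range from 0.43 to 1.09 over 4 probes. *DUSP5*, another ERK phosphatase, was at 0.65. Lower members were few, with *JUND* at -0.44 and *ETV5* at -0.16. With normexp correction 5 members were above 0.5 and the median was 0.23, and *SPRED3*, *FOS*, *JUN*, *ETV1* and *DUSP5* lay between the thresholds. Ligands of the EGF receptor family were uneven. *AREG* was at 2.71 and 3.71 and *EREG* had a log2 fold change of 1.08, whereas *TGFA* had a log2 fold change of -0.08, *HBEGF* 0.04 and the receptors *EGFR* and *ERBB3* 0.17 and -0.75. The value of *ERBB3* was -0.37 with normexp correction.

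The promoter of *EGR1* is shown because it carries the CArG box, the site bound by serum response factor at many immediate early genes. The stretch runs from 125 to 54 bases before the start of the gene at chr5:138465354-138465425, plus strand, RefSeq on GRCh38.p14, with the matches to the motif in capitals.
EGR1: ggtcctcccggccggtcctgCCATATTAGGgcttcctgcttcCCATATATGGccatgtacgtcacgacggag
A CArG box, searched as its usual consensus of 10 bases, which reads the same on both strands, stood in 454 of 35116 promoter windows, or 1.29%, each covering 250 bases before to 50 after a start. Of 27 list genes with a promoter in the table, 2 held it, *EGR1* and *EGR2*. Counted by window, as the background is, it stood in 2 of the 41 windows of the list. A match describes the letters and does not show that the site was bound.

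Genes of cholesterol and fatty acid synthesis had the highest median of the metabolic lists. Sterol regulatory element binding proteins drive these genes when the sterol content of the endoplasmic reticulum is low. All 42 had a value, 13 were above 0.5, 4 were below -0.5, and the median was 0.33. Across the alternative settings the median of this list stayed between 0.26 and 0.39. After *INSIG1*, described above, the highest were enzymes of the path from acetyl-CoA to cholesterol. *MSMO1*, a sterol demethylase, was at -0.89 in mock cells and 0.67 with *miR-139-5p*. *HMGCS1*, an early enzyme of the mevalonate steps, was at 2.09 and 3.47, and *SQLE*, which oxidises squalene, was at 3.37 and 4.61. *IDI1*, an isomerase of the isoprenoid steps, was at 2.32 and 3.42. The squalene synthase *FDFT1* had a log2 fold change of 0.59. The sterol transfer protein *STARD4* was at 1.01 and the fatty acid elongase *ELOVL6* at 0.82. The regulator *SREBF2* was at 0.40, between the thresholds. The 4 lower members were *ABCA1*, which exports cholesterol, at -0.76, and *PMVK*, *TM7SF2* and *ELOVL5*, each at -0.54. With normexp correction *ABCA1*, *TM7SF2*, *ELOVL5* and *FDFT1* lay between the thresholds, *MSMO1* was at 0.95 and *STARD4* at 0.58. The desaturase *SCD* was at -0.15 and the fatty acid synthase *FASN* at 0.48. Against the same mock array, this list had a median log2 fold change of 0.42 in the *miR-139-3p* culture.

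A short stretch of the *SREBF2* promoter is shown because it holds the core letters of a sterol regulatory element, in capitals, 153 to 106 bases before the start at chr22:41832952-41832999, plus strand, RefSeq on GRCh38.p14.
SREBF2: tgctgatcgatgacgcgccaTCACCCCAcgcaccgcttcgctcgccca
The core TCACCCCA, read on both strands, stood in 542 of 35116 promoter windows, or 1.54%. Of 34 list genes with a promoter in the table it was found in 3, *SREBF2*, *MVK* and *ME1*, or in 3 of the 46 windows of the list. It was not in the windows of *INSIG1*, *MSMO1* or *HMGCS1*, which says only that these letters are absent there.

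**Figure D3:**
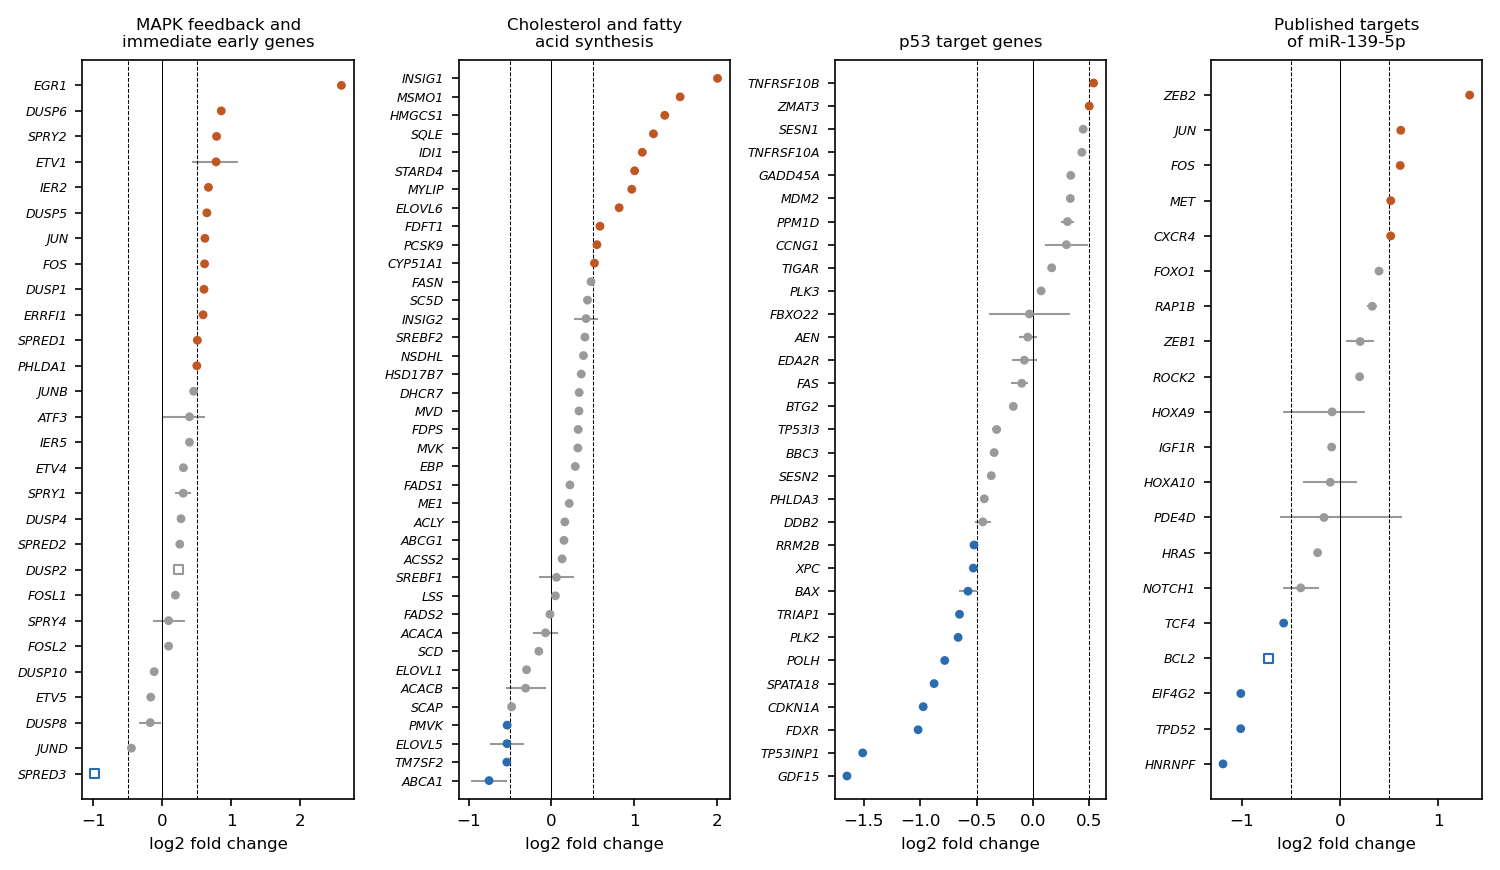
Log2 fold change on the x axis for members with a value in 4 gene lists, sorted within each panel, without genes not reported here. Points are the mean over probes, grey bars run from the lowest to the highest probe, open squares are bounds, blue and orange mark values below -0.5 and above 0.5. *EGR1* at 2.60, *INSIG1* at 2.01, *GDF15* at -1.65 and *HNRNPF* at -1.19 are the ends of the 4 panels.

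The targets of p53 had a median below that of all genes. p53 is the transcription factor that halts the cell cycle or starts apoptosis after damage to DNA. All 31 had a value, 11 were below -0.5 and 2 above 0.5, and the median was -0.32. *GDF15*, a secreted stress cytokine, was at 6.52 in mock cells and 4.87 with *miR-139-5p*. *TP53INP1*, a cofactor of p53, was at -0.35 and -1.86, and *FDXR*, a mitochondrial reductase, was at 6.04 and 5.02. *CDKN1A*, the inhibitor p21 of cyclin-dependent kinases, was at -0.85 and -1.82. The apoptosis gene *BAX* had a log2 fold change of -0.58, the polymerase *POLH* -0.78 and the kinase *PLK2* -0.66. The members were not lower as a whole. *MDM2*, which degrades p53, was at 0.33 over 3 probes from 0.30 to 0.36, *GADD45A* was at 0.34, and the death receptor *TNFRSF10B* was at 4.63 and 5.17. With normexp correction the median was -0.15 and 5 members were below -0.5, *TP53INP1* was at -0.59, and *CDKN1A*, *BAX*, *POLH* and *TNFRSF10B* lay between the thresholds. In the *miR-139-3p* culture, set against the same mock array, the median of the list was 1.48.

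Genes that copy DNA were described by 3 lists. Of 29 genes of the replication fork and chromatin assembly, 25 had a log2 fold change below 0, but 3 were below -0.5 and none above 0.5, with a median of -0.23. They were *CLSPN*, a mediator of the replication checkpoint, at -0.96, *CHAF1B*, a chromatin assembly subunit, at -0.57, and *RFC2*, of the clamp loader, at -0.51. The sliding clamp *PCNA* was at 5.28 in mock cells and 4.79 with *miR-139-5p*. With normexp correction *CLSPN* and *RFC2* lay between the thresholds, and the list again had 3 members below -0.5. Of 22 MCM and origin genes 5 were below -0.5, or 3 with normexp correction, and the median was -0.09. *MCM2* and *MCM5* had log2 fold changes of -0.71 and -0.64, whereas *MCM6* was at 0.10 and *MCM10* at 0.26. In nucleotide synthesis 7 of 26 were below -0.5 and 1 above 0.5, with a median of -0.20. With normexp correction 4 were below and none above, and with E1A scaling 2 were below and 2 above. *TK1* and *PPAT* lay between the thresholds with normexp correction, and *TK1* and *CAD* with E1A scaling. Thymidine kinase *TK1* was at 7.59 and 7.06 and *CAD*, which starts pyrimidine synthesis, at 3.89 and 3.37. *PPAT*, which starts purine synthesis, was at 1.40 and 1.95, and the reductase subunit *RRM2* was at 1.79 and 2.21. The lower members of this list lay between -0.61 and -0.51. Mitotic genes showed no common direction. Of 45, 2 were below -0.5 and 6 above 0.5, or 2 and 3 with normexp correction, and the median was 0.02, with *MAD2L1*, of the spindle checkpoint, at -0.85 and the kinesin *CENPE* at 1.13. In the *miR-139-3p* culture, set against the same mock array, the median of the mitotic genes was -1.47.

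**Figure D4:**
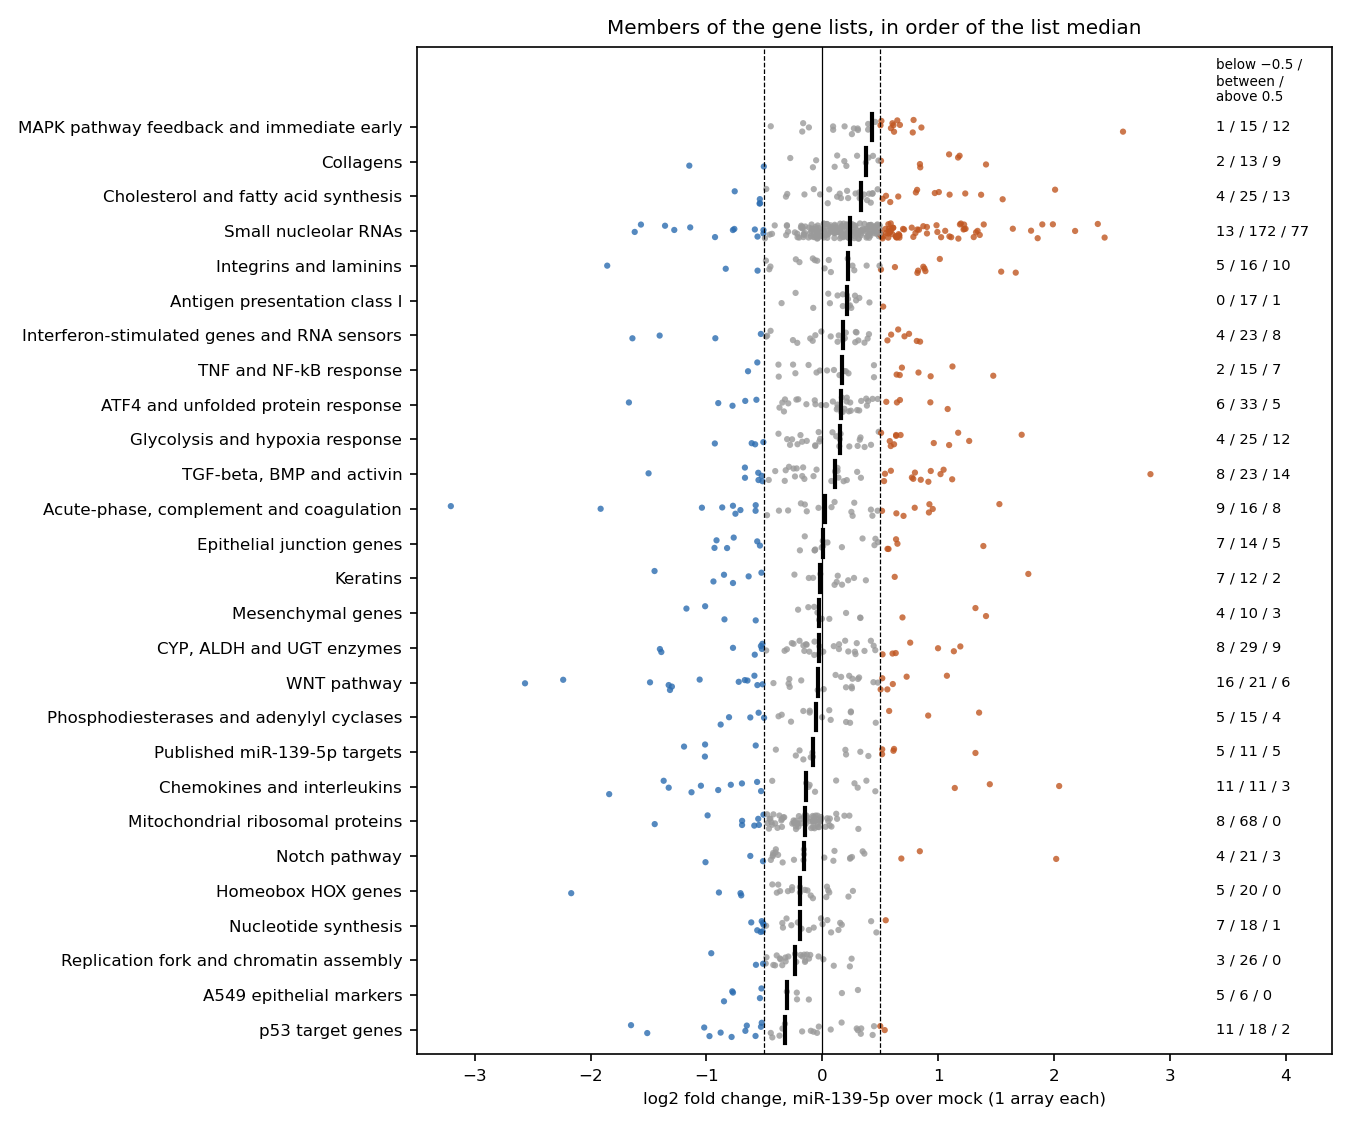
Log2 fold change on the x axis for the measured members of the gene lists that the naming rule picked, 1 list per row, with 1 point per gene and jitter within the row. Black bars are list medians, the vertical line is the median of all genes and dashed lines are -0.5 and 0.5. The numbers on the right count members below -0.5, between and above 0.5, bounds included, from 1, 15 and 12 for the MAPK list to 11, 18 and 2 for p53 targets.

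In the extracellular matrix, collagen genes had a median of 0.38, with 9 of 24 above 0.5 and 2 below -0.5, or 7 and none of 23 with normexp correction. *COL5A2*, a fibrillar collagen, was at 4.33 in mock cells and 5.50 with *miR-139-5p*. *COL4A1*, of basement membranes, was at 0.66 and 1.84, and *COL1A1*, the main chain of type I collagen, at -1.22 and 0.19 (log2 fold change 0.89 with normexp correction). *COL7A1*, of anchoring fibrils, was at 2.97 and 3.82. *COL18A1*, the brightest of the list, was at 6.23 and 6.15. Of 31 integrins and laminins, which join cells to the matrix, 10 were above 0.5 and 5 below -0.5, and the median was 0.22. *ITGAV*, an integrin chain that binds vitronectin, was at 3.23 in mock cells and 4.24 with *miR-139-5p*. *LAMC1* had a log2 fold change of 0.88. *ITGA6* was at 1.07 and 1.89. The leukocyte integrin subunit *ITGB2* was at -1.66 and -3.51, a log2 fold change of -1.86 that was -0.39 with normexp correction, and *ITGA3* was at 3.75 and 3.29. With normexp correction the median of integrins and laminins was 0.08, and 5 members were above 0.5.

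Epithelial and mesenchymal genes moved in both directions. *KRT18*, a keratin of simple epithelia, was at 8.80 in mock cells and 8.03 with *miR-139-5p*, *KRT8* was at 4.33 and 3.48, and *KRT19* was at 6.47 and 5.95. *KRT7* was at 8.95 and 8.83. In all, 7 of 21 keratins were below -0.5 and 2 above 0.5, and the median of -0.02 was -0.38 over bright probes alone and 0.14 without a filter on dim probes, so its direction was not settled. Of 26 junction genes 7 were below -0.5 and 5 above 0.5, with a median of 0.00, and with normexp correction 2 were below and 3 above. *CLDN4* and *CLDN7*, claudins of tight junctions, had log2 fold changes of -0.76 and -0.93, which were -0.46 and -0.24 with normexp correction, and *CDH1*, the epithelial cadherin, was at 1.91 and 1.37 (log2 fold change -0.54, or -0.47 with normexp correction). *CLDN2*, a pore-forming claudin, was at 2.84 and 4.23, and the scaffold *TJP1* was at 0.57. Of 17 mesenchymal genes 4 were below -0.5 and 3 above 0.5, or 3 and 1 with normexp correction. The smooth muscle genes *TAGLN* and *ACTA2* were at -1.17 and -0.84 and the receptor kinase *AXL* was at 3.90 and 2.89, while *VIM* was at 7.21 and 7.54 and *SPARC* had a log2 fold change of 0.69. With normexp correction *TAGLN*, *ACTA2* and *SPARC* were at -0.52, -0.54 and 0.40.

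WNT ligands signal through Frizzled and LRP receptors to stabilise beta-catenin, and *AXIN2* is a feedback target of that pathway. Of 43 WNT genes 16 were below -0.5 and 6 above 0.5. The 16 lower genes included 5 ligands, *WNT4*, *WNT6*, *WNT7B*, *WNT10B* and *WNT11*. *WNT7B* was at 0.08 in mock cells and -2.15 with *miR-139-5p*, *WNT10B* was at -0.97 and -2.30, and *WNT6* was at -1.29 and -3.86. With normexp correction 7 WNT genes were lower and 3 higher. *WNT6* was near background on the treated array, and its log2 fold change of -2.57 was -0.62 with normexp correction. Under it *WNT7B*, *AXIN2* and *KREMEN1* were at -0.99, -0.57 and -0.86, and *WNT4*, *WNT10B*, *WNT11*, *LRP5*, *FZD3* and *TCF7L1* lay between the thresholds. *AXIN2* was at -0.29 and -1.78, the inhibitor receptor *KREMEN1* at 0.83 and -0.48, and *LGR6*, a receptor of R-spondins, at 1.29 and -0.01. Of the 6 above 0.5, 4 were receptors, *LRP5* at 0.56, *LRP6* at 0.61, *FZD3* at 0.52 and *LGR4* at 0.73. The others were the factor *TCF7L1* and the secreted inhibitor *SFRP1*, which was at 0.65 and 1.72. The list median was -0.04, ran from -0.11 to 0.11 over the settings and has no settled direction. Against the same mock array, *WNT7B* was at -2.78, *WNT10B* at -1.10 and *AXIN2* at -1.26 with *miR-139-3p*.

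In the TGF-beta, BMP and activin pathway, 14 of 45 genes were above 0.5 and 8 below -0.5, with a median of 0.11. With normexp correction 4 were above 0.5 and none below -0.5, and over bright probes the median was -0.08, so the direction of the list was not settled. Receptors differed. *TGFBR2* was at 4.47 in mock cells and 5.32 with *miR-139-5p*, and *TGFBR3*, *ACVR2B* and *BMPR2* had log2 fold changes of 1.02, 0.94 and 0.92, whereas *ACVR1* was at -0.55. With normexp correction these 4 lay between the thresholds, and so did *BMP4*, *TGFB1* and *INHBA*. Ligands and inhibitors split. The Nodal inhibitor *LEFTY1* was at -3.96 and -1.13, with a log2 fold change of 2.83 that was 0.61 under normexp correction. *INHBA*, an activin chain, was at least 2.90-fold higher, with a log2 difference of 0.32 under normexp correction. *BMP7* was at -0.99 and -2.49 (-0.42 with normexp correction), *BMP4* at 0.38 and -0.28, and *TGFB1* at 2.77 and 2.26. In the Notch pathway 4 of 28 were below -0.5 (14.3%) and 3 above 0.5 (10.7%), close to the shares of all genes. The pathway had a median of -0.16, and with normexp correction 2 were below and 2 above. Its DNA binding factor *RBPJ* was at 1.75 and 0.74, the ligand *JAG1* at 1.51 and 2.36, and the dim target *HEY1* at -2.72 and -0.70 (log2 fold change 0.75 with normexp correction). Of 25 HOX genes, 5 were below -0.5 and none above 0.5, or 3 and none of 24 with normexp correction. *HOXB8*, *HOXA7* and *HOXB9* had values of -2.17, -0.89 and -0.71, and *HOXB5* was at 2.07 and 1.68.

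**Figure D5:**
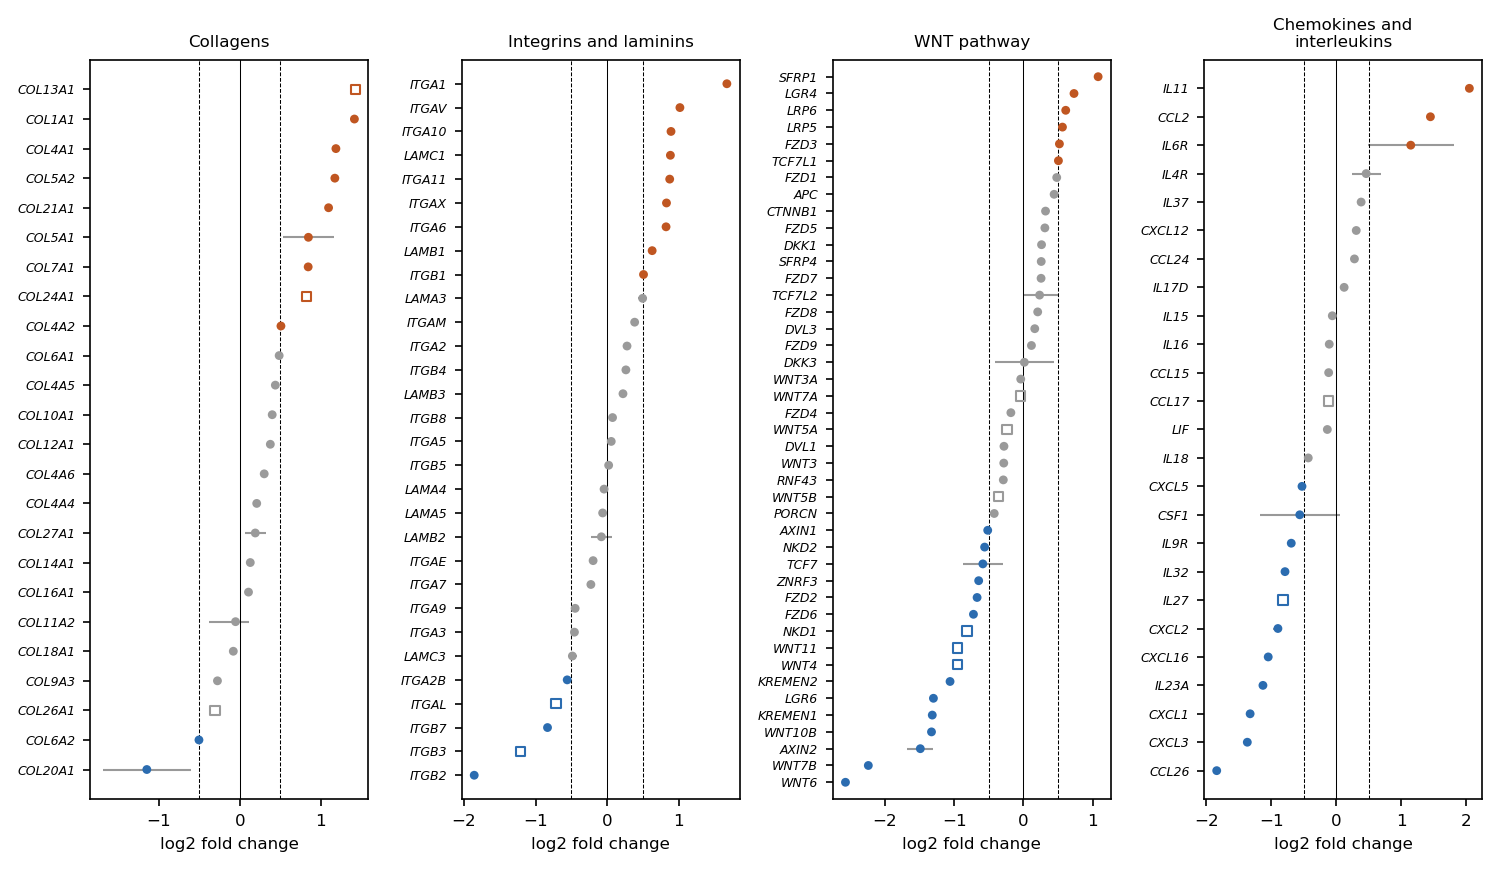
Log2 fold change on the x axis for members with a value in 4 lists, without genes not reported here, drawn as means over probes with grey bars from the lowest to the highest probe and open squares for bounds. Blue and orange mark values below -0.5 and above 0.5. Collagens run up to 1.43 and integrins and laminins up to 1.67, WNT genes reach down to -2.57 and chemokines and interleukins run from -1.84 to 2.04.

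Chemokines and interleukins recruit and instruct immune cells, and 25 of the 84 on the array had a value. Of these 11 were below -0.5 and 3 above 0.5, and the median was -0.14. With normexp correction 5 were below and 2 above, and without a filter on dim probes the median was 0.15, so the direction was not settled. The neutrophil chemokines *CXCL1*, *CXCL2* and *CXCL3* were at 1.22, 1.70 and -0.06 in mock cells and at -0.11, 0.81 and -1.43 with *miR-139-5p*. *CCL26*, an eosinophil chemokine, was at -0.47 and -2.31. On the higher side, after *IL11*, were the monocyte chemokine *CCL2*, at 0.38 and 1.83, and *IL6R*, at 1.14 over 2 probes that ranged from 0.49 to 1.80. With normexp correction *CXCL3* and *CCL26* were at -0.72 and -0.70 and *IL6R* at 0.34. Acute-phase, complement and coagulation genes split, with 9 of 33 below -0.5 and 8 above 0.5, or 4 and 4 with normexp correction. *LCN2*, an iron-scavenging protein, was at 0.27 and -2.94, and its log2 fold change of -3.21 was -1.34 with normexp correction. *C3*, the central complement protein, was at 1.05 and -0.87. *TFPI*, an inhibitor of coagulation, was at 0.43 and 1.96, and the fibrinogen chain *FGB* was at 1.66 and 2.62. In the NF-kB list 7 of 24 were above 0.5 and 2 below -0.5, or 4 and 1 with normexp correction. The ubiquitin ligase *BIRC3* was at 1.40 and 2.88, *NFKB2* had a log2 fold change of 0.94 (0.61 with normexp correction) and *RELB* of 0.67, whereas *TNFAIP2* was at -0.56.

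Interferon-stimulated genes serve antiviral defence. Of 35 with a value 8 were above 0.5 and 4 below -0.5, with a median of 0.18. *OAS1* was at -0.04 in mock cells and 0.77 with *miR-139-5p*, *IFI6* at 0.00 and 0.85 and *ISG20* at 4.34 and 5.05. The sensor of double-stranded RNA *IFIH1* was at 0.75. In the other direction *IFIT1* was at 0.34 and -0.19, *IFITM1* was at -1.44 and -2.85 and *OASL* at -1.29 and -2.92. With normexp correction 2 members were above 0.5 and 1 below -0.5, and *OASL*, *IFITM1*, *OAS1* and *IFIH1* were at -0.39, -0.36, 0.44 and 0.29, with *IFIT1* at -0.30. Of 18 genes of class I antigen presentation 15 were above 0, but 1 was above 0.5, the trimming peptidase *ERAP1* at 0.53, which was 0.46 with normexp correction. *HLA-B* was at 0.41 over 2 probes from 0.37 to 0.45. Class I heavy chains are near copies of each other, and how far their probes read more than 1 of them was not tested.

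Of 41 genes of glycolysis and the hypoxia response 12 were above 0.5 and 4 below -0.5, with a median of 0.15. *ANGPTL4*, a secreted inhibitor of lipoprotein lipase, was at 3.48 in mock cells and 5.20 with *miR-139-5p*, *PLOD2*, a collagen lysyl hydroxylase, at 3.80 and 4.89, and *ALDOC* at -1.45 and -0.28. *EGLN3*, an oxygen sensor, had a log2 fold change of 0.96 and hexokinase *HK2* of 0.68. The glycolytic enzymes *ENO1* and *PGAM1* were at -0.26 and -0.38, and *PFKFB3*, which makes an activator of glycolysis, had a value of -0.93. *ADM* and *CA12* were at -0.61 and -0.58, and both stayed below -0.5 in every alternative. With normexp correction 4 members were above 0.5, with *ALDOC* at 0.53, and *EGLN3* and *HK2* were not among them. In the list of ATF4 and unfolded protein response genes 6 of 44 were below -0.5 (13.6%) and 5 above 0.5 (11.4%), close to the shares of all genes. Folding genes of the endoplasmic reticulum differed. The chaperones *DNAJB9*, *HSPA5* and *DNAJC3* had log2 fold changes of 1.08, 0.64 and 0.67, whereas the disulfide isomerase *PDIA3* was at -0.35 and *EDEM1*, which sends misfolded glycoproteins to degradation, at -0.90, or -0.32 with normexp correction. *NUPR1*, a stress-induced regulator, was at 3.38 and 1.71, and the serine synthesis enzyme *PSAT1* was at 5.33 and 4.67. The NRF2 list, which holds *HMOX1*, had a median of -0.04. In it 2 of 31 were below -0.5, *HMOX1* and the epoxide hydrolase *EPHX1* at -1.19, and 1 was above 0.5. The reductase *NQO1*, a standard NRF2 target, was at 3.07 and 2.85. The cause of the *HMOX1* value was not tested.

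Among enzymes of drug and hormone metabolism 8 of 46 were below -0.5 and 9 above 0.5, or 2 and 3 with normexp correction. *ALDH3A1*, an aldehyde dehydrogenase, was at 6.68 in mock cells and 5.28 with *miR-139-5p*, and *ALDH3B1* was at 2.28 and 0.90 over 3 probes from -1.62 to -1.20. The glucuronosyltransferases *UGT2B7*, *UGT2B10* and *UGT2B15* had log2 fold changes of 1.19, 1.00 and 1.14, which were 0.38, 0.58 and 0.21 with normexp correction. These 3 and *UGT2B11* are close copies of each other, and how far their probes read more than 1 of them was not tested. Of 24 phosphodiesterases and adenylyl cyclases 5 were below -0.5 and 4 above 0.5, or 1 and 1 of 23 with normexp correction. *PDE10A* was at -2.48 and -1.12, *PDE1C* had a value of 0.91 and *PDE5A* of -0.88. With normexp correction they were at 0.52, 0.44 and -0.31.

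Small nucleolar RNAs guide the modification of ribosomal and spliceosomal RNA, and the array reads many of them singly. Of 262 with a value 77 were above 0.5 and 13 below -0.5, and the median was 0.24. With normexp correction 34 were above, 3 below and the median was 0.13. Those of the Cajal body, which act on spliceosomal RNA, had a median of 0.76, with 14 of 21 above 0.5 and 3 below -0.5. *SCARNA14* was at 0.57 in mock cells and 3.01 with *miR-139-5p*, *SCARNA8* was at 1.13 and 3.31 and *SCARNA17* was at 2.65 and 1.08. The H/ACA class, whose symbols begin with SNORA, had a median of 0.41 and the C/D class, whose symbols begin with SNORD, one of 0.17. With *miR-139-3p* the medians of the 3 classes were 1.68, 1.05 and 0.55 against the same mock array. Many of these RNAs lie in introns of host genes and their probes can read the host transcript, which was not tested.

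Housekeeping groups were counted in the same way. None of 78 cytosolic ribosomal proteins and none of 37 proteasome subunits was past 0.5 in either direction, and their medians were 0.15 and -0.01. Of 61 clustered histone genes 1 was below -0.5 and none above 0.5, with a median of 0.00, in contrast to the variant *H2AZ2*. Mitochondrial ribosomal proteins had a median of -0.15, with 65 of 76 below 0, 8 below -0.5 and none above 0.5. The count below -0.5 was 11 with normexp correction, 15 without scaling and 5 with E1A scaling. *MRPS12* had a log2 fold change of -1.45, and *MRPS34* was at 4.66 in mock cells and 3.67 with *miR-139-5p*.

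Of 249 symbol families, formed by the letters before the first digit with at least 8 measured members, the highest medians were those of SCARNA (0.76), PLEKHA (0.53), SNORA (0.41), GNG (0.35) and COL (0.34). PLEKHA genes encode adaptors with a pleckstrin homology domain, and 5 of 8 were above 0.5, up to *PLEKHA1* at 1.14. The lowest medians were those of COQ (-0.41), KCNJ (-0.40), HOXB (-0.38), GAS (-0.36) and TP (-0.32). COQ symbols stand mainly for enzymes of coenzyme Q synthesis, though the lowest, *COQ7-DT* at -0.89 (-0.07 with normexp correction), is a divergent transcript, and 5 of 12 were below -0.5 and none above 0.5. Sharing letters is not sharing descent, so these families are a description of symbols.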

How the data were processed

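RNA of A549 cells was labelled with Cy3 and hybridised to Agilent arrays of 1 colour. The intensity of every spot was deposited by the authors as read by Feature Extraction 12.1.1.1, background-subtracted, with no normalization between arrays. The authors also deposited log2 values per probe, which matched quantile-normalized log2 signals of the 3 arrays up to a constant (median absolute deviation 0.003) and served as an alternative. Probe coordinates were not used here.

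Control spots and outlier spots (614 in mock, 935 with *miR-139-5p*, 1526 with *miR-139-3p*) were excluded. The 75th percentile of an array's log2 signals was subtracted, and spots were averaged by probe. A probe was well above background where at least 50% of its spots were. Of 58201 probes, 31104 were named through their accession in RefSeq. A gene value is the mean over its probes that were well above background on both arrays. Genes well above background on 1 array have a bound. The lowest signal well above background was -4.28 in mock and -4.12 with *miR-139-5p*. The threshold was 0.5 on the log2 scale.

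The genes named are the 15 lowest and 15 highest protein-coding genes with a mean signal of -1 or more and probes in a single direction, the 5 largest bounds each way, *PDE2A*, *AGO2*, *DICER1*, the published targets, and members at the ends of lists with a share past 0.5 of at least 1.5 times that of all genes (4 or more such members) or a median at least 0.15 from that of all genes (5 or more measured). Up to 6 members were taken from each end. Others, such as *AREG*, *EREG*, *MCM2*, *MCM5*, *CENPE*, *EPHX1* and members inside a list, were chosen after their values were seen. The comparison, the 58 gene lists and the rules were chosen with earlier results of these data known. The 23 published targets and all lists were compiled from general knowledge.

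With 1 array a group, no test was made. The depth is given by signal over background and the precision by spots and probes. The calculation was tested on simulated data. Alternatives were normexp background correction with an offset of 50 on median spot and background intensities, quantile, no or E1A scaling, a percentile over detected probes, no filter on dim probes, bright probes, the brightest probe, outlier spots kept, the deposited log2 values and a threshold of 1. Python 3.11.15, numpy 2.4.6, pandas 2.3.3 and limma 3.58.1 were used. 3′UTR sites were not analysed here. Some genes are counted in the lists but not reported singly here.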

Additional observations from a re-analysis of the deposited data

Results flagged for a closer look

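The median of the p53 target list had opposite signs for the 2 precursors. The median log2 fold change of the list was -0.32 for the 5p strand against 1.48 for the 3p strand, and the difference between them was not tested. Each precursor had 1 array, both were set against the same mock array, and the *miR-139-3p* array lay on another slide.

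Probes without a RefSeq symbol were used in no comparison. Of 6734 measured on both arrays, 678 had a log2 fold change below -0.5 (10.1%) and 621 had one above 0.5 (9.22%), with a median of 0.02.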

How the results depend on the processing

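The counts of genes past 0.5 depended on how dim signals were treated. With normexp correction 630 genes were lower and 517 higher, in place of 1847 and 1609, and over bright probes alone 1031 were lower and 1017 higher. Without a filter on dim probes 2653 were lower and 2651 higher of 22180. At a threshold of 1, 357 were lower and 288 higher. Without scaling the counts were 2375 and 1217, and with E1A scaling 1506 and 1958. Leaving the arrays unscaled put the median of all genes at -0.07, the E1A scaling at 0.06 and no filter on dim probes at 0.12. Of 261 named genes past 0.5, none changed sign in any alternative, but 120 lay between -0.5 and 0.5 with normexp correction. Of 101 named genes between the thresholds, 15 changed sign in at least 1 alternative. Of 58 lists, 33 kept their side of the median of all genes in every alternative. Deposited log2 values gave 1655 lower and 1560 higher. The cause of these shifts was not tested. No replicate could be left out and no paired analysis was possible because each group had 1 array, so the spread between cultures is unknown.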

Other observations

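Regulators of the G1 phase had unequal values, and the genes in this paragraph were chosen after their values were seen. *CCND3*, a D-type cyclin, was at 4.28 in mock cells and 2.77 with *miR-139-5p* (normalised log2 signal), and *RBL2*, a relative of the retinoblastoma protein, had a log2 fold change of -1.12. *CDK6*, a partner of D-type cyclins, was at 2.99 and 3.99 in the same order, and the inhibitor *CDKN1B* had a log2 fold change of 0.58. The RNA-binding proteins *IGF2BP1*, *IGF2BP2* and *IGF2BP3*, which stabilise messenger RNAs, had log2 fold changes of 1.12, 1.15 and 0.65. In the BCL2 family, the survival gene *BCL2L1* was at -0.90 and *BCL2A1* at 0.96, or 0.43 with the brightest probe. With normexp correction *IGF2BP2* was at 0.53 and *CDKN1B* at 0.46.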
